A study of Homo sapiens with 4 samples.

Results

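Ferritin and iron-handling transcripts were followed in the MDA-MB-468 cell line, which was established from a breast tumour of the triple-negative kind, after depletion of the scaffold protein SASH1. The members were 10 genes of 26518 in the deposited table, namely FTH1, FTL, FTHL17, TFRC, SLC11A2, SLC40A1, HMOX1, ACO1, IREB2 and NCOA4. They were chosen by symbol from the biology of iron with earlier results of this same comparison known, in which FTHL17 stood among the genes with the highest rise. Their values in the 2 groups are therefore given as a description, with no p-value.

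In shSASH1 (2 libraries) the cells had been infected with lentivirus encoding a hairpin RNA that targets SASH1, and in shControl (2 libraries) with the pGIPZ control virus. All cells were puromycin-selected stable lines, and the labels do not say how many clones or hairpins were used or whether replicate libraries are separate cultures. RNA-seq gave TPM, a level scaled for gene length and library size, and read numbers rebuilt from it came to 24362035 and 19527704 for shSASH1 and 20778339 and 24190878 for shControl. SASH1 itself stood at 3.65 and 4.01 TPM in shSASH1, against 14.99 and 13.03 TPM in shControl, a log2 change of -1.63. The 70 tested genes in the 20 Mb window of chromosome 6 that holds SASH1 had a median log2 change of -0.38. Set against the median level of that window in the same library, SASH1 changed by -1.10. Of the 14458 genes that averaged 1 TPM or more, 32.0% passed limma's test at an adjusted p of 0.05, 18.8% higher and 13.3% lower in shSASH1. With 2 libraries a group the smallest two-sided p of an exact permutation test is 0.333, and calls rest on limma's shared estimate of the spread. Epithelial markers (EPCAM, KRT8, KRT18, KRT5, CDH1, EGFR) summed to 5638 and 5038 TPM in shSASH1 and 4536 and 4513 TPM in shControl. Of these EGFR rose, to 2191 and 2203 TPM in shSASH1, against 1169 and 1075 TPM in shControl (log2 change 0.97, limma adjusted p = 0.0034). The other epithelial markers did not pass and had log2 changes below 0, from -0.08 for KRT18 to -0.47 for CDH1. The erythroid and hepatocyte markers summed to 1.12 TPM at most in any library. The macrophage markers, a cell type rich in ferritin, summed to 43.8 and 101 TPM in shSASH1 and 40.3 and 46.6 TPM in shControl, nearly all of it CD14 and CSF1R, while the leukocyte gene PTPRC and the macrophage gene CD163 had at most 0.104 TPM. Fibroblast markers summed to at most 11 TPM, mostly COL1A1, with COL1A2 at 0 in all 4 libraries. The part of other cells in the results was not tested. Of the estrogen, progesterone and HER2 receptor genes, PGR had at most 0.0248 TPM and ESR1 at most 3.64 TPM. ERBB2, the HER2 gene, was not near 0, and fell to 28.98 and 38.28 TPM in shSASH1, against 68.4 and 70.3 TPM in shControl (log2 change -1.04, limma adjusted p = 0.0106).

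Cells take up iron bound to transferrin through the transferrin receptor TFRC, move it out of endosomes with the divalent metal transporter SLC11A2 and export it through ferroportin, SLC40A1. Surplus iron is stored in ferritin, a hollow shell of heavy chains (FTH1), which oxidise iron, and light chains (FTL), which help to lay it down. NCOA4 carries ferritin to the lysosome when iron is needed, and HMOX1 frees iron from heme. The iron regulatory proteins, encoded by ACO1 and IREB2, bind hairpins called iron-responsive elements (IREs) when iron is scarce. Bound near the 5′ end of a transcript they block its translation, and bound in the 3′ UTR of TFRC they protect it from decay. FTHL17 is an X-linked relative of FTH1 whose expression is known from germ cells of the testis.

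The IREs of the members that match the form searched for are printed, because IREs are what ties ferritin, ferroportin and the transferrin receptor to the same regulators. GENCODE 29 transcripts were searched for the loop CAGTGN closed by 5 paired bases, with a bulged C before them and at least 3 of the next 5 bases paired. The bulged C and the loop are in capitals, T stands for U, and positions are on hg38.
FTH1, 5′ UTR, minus strand, chr11:61967574-61967602: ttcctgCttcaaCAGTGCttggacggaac
FTL, 5′ UTR, plus strand, chr19:48965335-48965363: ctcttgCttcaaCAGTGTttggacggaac
SLC40A1, 5′ UTR, minus strand, chr2:189580661-189580689: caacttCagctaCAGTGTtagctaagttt
TFRC, 3′ UTR, minus strand, chr3:196050979-196051007: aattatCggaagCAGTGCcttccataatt
TFRC, 3′ UTR, minus strand, chr3:196050575-196050603: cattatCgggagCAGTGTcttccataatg
TFRC, 3′ UTR, minus strand, chr3:196050510-196050538: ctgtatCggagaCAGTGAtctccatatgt
TFRC, 3′ UTR, minus strand, chr3:196050463-196050491: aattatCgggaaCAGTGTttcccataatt

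These 4 members held such a hairpin, TFRC 4 times, and the other 6, FTHL17 among them, had no match to this form. Hairpins of other forms were not searched for, so the want of a match does not show that a transcript lacks an IRE. Of 19684 protein-coding genes, 78 (0.396%) had a match in at least 1 coding transcript. A match is a description of the sequence, and binding was not measured.

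The 10 transcripts covered a wide range of levels. FTH1 and FTL were 44th and 95th of all rows by mean TPM, followed by TFRC (514th), NCOA4 (564th), HMOX1 (3460th), SLC11A2 (5546th), IREB2 (6032nd), ACO1 (6730th), FTHL17 (10064th) and SLC40A1 (18100th). In shSASH1, TFRC at 182 to 243 TPM and NCOA4 at 235 to 249 TPM overlapped, whereas in shControl TFRC at 273 to 300 TPM lay above NCOA4 at 225 to 231 TPM. SLC11A2, IREB2 and ACO1 lay close together, and in shSASH1 the range of SLC11A2 overlapped that of IREB2 and the range of IREB2 that of ACO1.

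**Figure D1:**
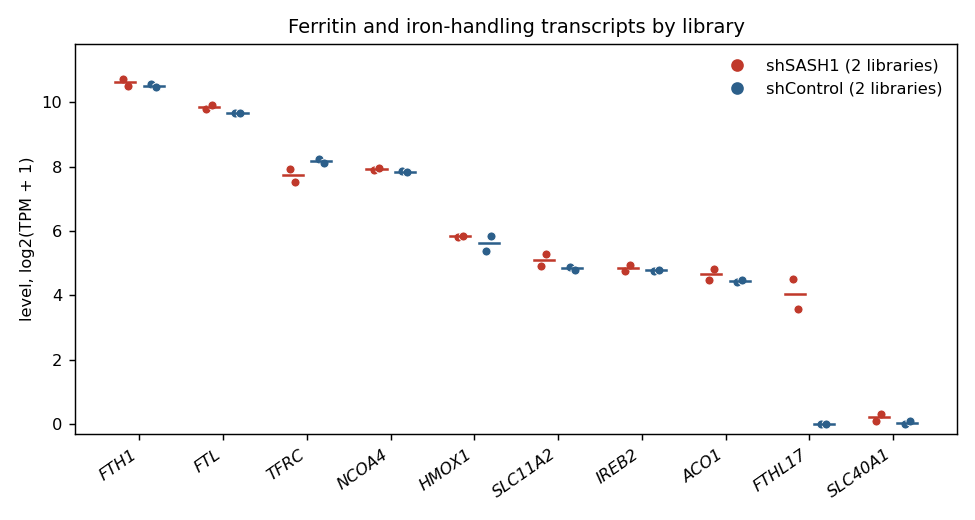
Level of each member in each library, as log2(TPM + 1), ordered by mean TPM, with shSASH1 left of shControl; points are libraries and bars are group means (n = 2). FTHL17 lies at 0 in shControl and at 22.04 and 10.9 TPM in shSASH1. On this scale the groups differ less in each of the other members, and TFRC is lower in shSASH1 without overlap.

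The largest change among the tested members was that of FTHL17. It had 22.04 and 10.9 TPM in the shSASH1 libraries and was listed at 0 in both shControl libraries. The group means were 16.4 ± 7.90 TPM in shSASH1 and 0 in shControl (SD, n = 2 each), which rest on 117 and 46 rebuilt reads in shSASH1 and on 0 and 0 in shControl. Every shSASH1 library was thus above every shControl library, and the shSASH1 libraries themselves differed 0.96 log2 units. On the log2(TPM + 1) scale the change was 4.05 ± 0.35 (SE), larger than that of 99.9% of tested genes, a size that depends on the pseudocount since no fold can be given against 0. FTHL17 passed the filter on low values through its shSASH1 level alone.

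FTHL17 (chromosome X, 31071241 to 31072053, minus strand) is a gene of 1 exon, and its coding sequence is the length of that of FTH1, 552 bases. The first 90 coding bases of both genes are shown, since they hold the longest run of bases that they share, with differing bases in capitals.
FTHL17, chrX:31071864-31071953, minus strand: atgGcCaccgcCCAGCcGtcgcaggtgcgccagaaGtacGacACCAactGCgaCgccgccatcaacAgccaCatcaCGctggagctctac
FTH1, chr11:61967336-61967425, minus strand: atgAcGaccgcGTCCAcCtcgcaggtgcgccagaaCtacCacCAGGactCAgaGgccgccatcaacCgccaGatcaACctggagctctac

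In this stretch 69 of 90 bases were equal and 21 differed. Over the whole coding sequence FTHL17 and FTH1 were equal at 400 of 552 bases (72.5%), FTHL17 and FTL at 336 of 528 aligned bases (63.6%), and FTH1 and FTL at 349 of 522 (66.9%). The longest exact run shared by FTHL17 and FTH1 was 17 bases, and 0 of the 764 words of 50 bases in the FTHL17 transcript occurred in a transcript of any other GENCODE gene. The read length is not given in the sources used here. FTH1 differed in this respect, with 929 of its 1180 words (78.7%) found in 17 other genes, 15 of them pseudogenes, and FTL shared 152 of 829 (18.3%) with 2 pseudogenes. The levels of FTH1 and FTL can therefore depend on how such reads were assigned.

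Of the 2 protein-coding genes on either side, GK, a glycerol kinase, fell to 7.53 and 8.34 TPM in shSASH1, against 12.9 and 12.4 TPM in shControl (log2 change -0.61 ± 0.11, limma adjusted p = 0.0196). TAB3, an adaptor of the TAK1 kinase, fell to 15.9 and 16.6 TPM, against 21.8 and 20.2 TPM in shControl (-0.35 ± 0.09, limma adjusted p = 0.0433). DMD, the dystrophin gene, had 2.58 and 2.94 TPM in shSASH1 and 4.52 and 3.84 TPM in shControl, and did not pass (limma adjusted p = 0.1002). FAM47A was at 0 in both shSASH1 libraries and at 0.133 and 0.0569 TPM in shControl. The median log2 change of the 30 tested genes in the 20 Mb window that holds FTHL17 was -0.45. With each gene set against the median level of its 20 Mb window in the same library (centring), neither of the neighbours that fell passed, GK at -0.06 (limma adjusted p = 0.778) and TAB3 at 0.19 (limma adjusted p = 0.295).

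**Figure D2:**
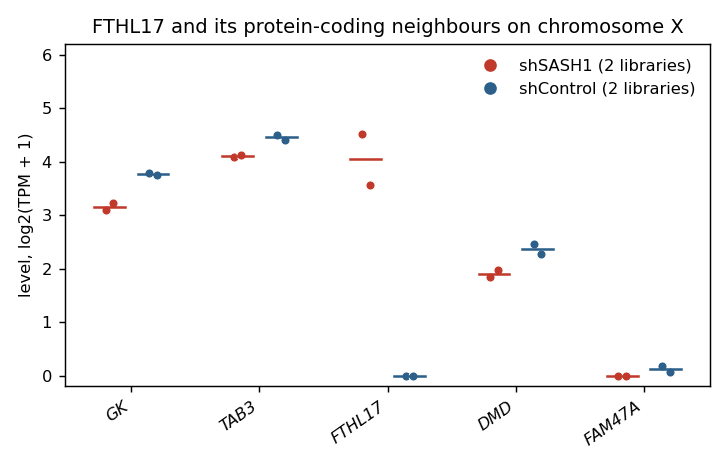
Level, as log2(TPM + 1), of FTHL17 and of the 2 protein-coding genes on either side of it on chromosome X, in chromosome order, with shSASH1 left of shControl; points are libraries and bars are group means (n = 2). FTHL17 is higher in shSASH1, while GK, TAB3 and DMD are lower.

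The tested genes whose mean-centred profile over the 4 libraries was closest to that of FTHL17 were NEFH, a neurofilament heavy chain (Euclidean distance 0.569 log2 units), HMGN5, a nucleosome-binding protein (0.682), and CXorf57 (0.719). HMGN5 had 12.4 and 10.9 TPM and CXorf57 had 14.0 and 14.4 TPM in shSASH1, and both genes were listed at 0 in both shControl libraries. NEFH had 39.0 and 25.6 TPM in shSASH1, against 0.451 and 0.347 TPM in shControl. HMGN5 and CXorf57 lie on chromosome X, as FTHL17 does, and NEFH on chromosome 22. The closest to FTH1 were NOX1 (0.0133), AGPAT5 (0.0227) and IL17RD (0.0280), none of which passed.

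Other genes known from the germ line and from tumours, the cancer-testis genes, were mostly near 0. Of 21 listed, 2 were tested and both rose, where 18.8% of all tested genes rose. MAGEA3 stood at 587 and 549 TPM in shSASH1, against 318 and 358 TPM in shControl (log2 change 0.75, limma adjusted p = 0.00671). MAGEA6 stood at 318 and 312 TPM, against 250 and 258 TPM in shControl (0.31, limma adjusted p = 0.0177). MAGEA3 and MAGEA6 are close copies of each other, so their reads may be shared, and after centring MAGEA6 did not pass (0.14, limma adjusted p = 0.204). The remaining 19 had at most 1.36 TPM in any library, and 6 of them were at 0 in all 4. MAGEA4 was at 0 in both shSASH1 libraries and at 1.16 and 0.804 TPM in shControl. MAGEA1, PRAME, MAGEB2 and MAGEC1 were also lower in shSASH1 without overlap, and DDX43 was higher without overlap, all at levels too low to be tested.

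The storage ferritins themselves stayed within a narrow range. FTH1 (chromosome 11, 61959718 to 61967660, minus strand) had 1693 and 1440 TPM in shSASH1 and 1501 and 1417 TPM in shControl. The groups overlapped, and the means were 1566 ± 178 TPM in shSASH1 and 1459 ± 59.6 TPM in shControl (SD, n = 2 each), a log2 change of 0.10 ± 0.10. FTL (chromosome 19, 48965301 to 48966878, plus strand) had 875 and 953 TPM in shSASH1 and 804 and 801 TPM in shControl. The FTL groups did not overlap, with means of 914 ± 55.3 TPM in shSASH1 and 803 ± 2.11 TPM in shControl (SD, n = 2 each) and a log2 change of 0.19 ± 0.07.

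FTH1 TPM divided by FTL TPM was 1.93 and 1.51 in shSASH1 and 1.87 and 1.77 in shControl, so the shSASH1 libraries lay on both sides of the shControl pair. FTHL17 made up 0.851% and 0.452% of the summed TPM of the 3 ferritin genes in the shSASH1 libraries and 0% in shControl. FTMT, the mitochondrial ferritin, was at 0 in all 4 libraries. FTLP10, a pseudogene of the light chain, was at 0 in all 4 as well, and the rows analysed held 0 pseudogenes named after FTH1.

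Among the uptake and export genes, TFRC (chromosome 3, 196027183 to 196082189, minus strand) was the only tested member below its control level. It had 243 and 182 TPM in shSASH1 and 300.2 and 273 TPM in shControl. The groups did not overlap, with means of 212 ± 43.6 TPM in shSASH1 and 287 ± 19.3 TPM in shControl (SD, n = 2 each), a ratio of 0.741 and a log2 change of -0.44 ± 0.16. The shSASH1 libraries differed from each other by nearly as much, with replicate 2 lower by 0.42 log2 units. TFRC TPM divided by the summed TPM of FTH1 and FTL was 0.0947 and 0.0758 in shSASH1 and 0.130 and 0.123 in shControl, without overlap.

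SLC11A2 (chromosome 12) had 28.9 and 38.1 TPM in shSASH1 and 28.5 and 26.8 TPM in shControl. The groups did not overlap, but shSASH1 replicate 1 lay next to the shControl values, and the log2 change of 0.26 ± 0.15 was smaller than the 0.39 between the shSASH1 libraries. SLC40A1 (chromosome 2) was close to absent, at 0.0704 and 0.265 TPM in shSASH1 and 0 and 0.0673 TPM in shControl. These values stand for 2 and 6 rebuilt reads in shSASH1 and 0 and 2 in shControl, and SLC40A1 was the member that did not pass the filter.

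**Figure D3:**
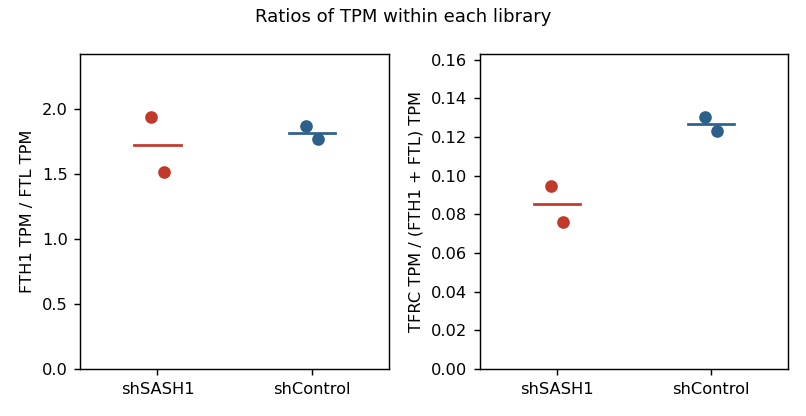
TPM ratios within each library, FTH1 over FTL on the left and TFRC over the sum of FTH1 and FTL on the right, with shSASH1 left of shControl; points are libraries and bars are group means (n = 2). The heavy-to-light ratio overlaps between the groups, and the TFRC ratio is 0.0947 and 0.0758 in shSASH1 and 0.130 and 0.123 in shControl.

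The remaining members encode the iron regulatory proteins, the ferritin receptor for lysosomal release and heme oxygenase. ACO1 had 21.4 and 27.1 TPM in shSASH1 and 20.5 and 21.4 TPM in shControl (log2 change 0.20 ± 0.13). IREB2 had 26.0 and 29.9 TPM in shSASH1 and 26.3 and 26.6 TPM in shControl (0.07 ± 0.10), with overlap. NCOA4 had 235 and 249 TPM in shSASH1 and 231 and 225 TPM in shControl (0.09 ± 0.06), without overlap. HMOX1 had 55.1 and 56.8 TPM in shSASH1 and 40.3 and 56.9 TPM in shControl (0.22 ± 0.17), where the spread lay in the shControl pair, 0.49 log2 units apart.

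ACO1 (32384603 to 32454769, plus strand) lies in the stretch of chromosome 9 from 20 to 40 Mb, whose 97 tested genes had a median log2 change of 1.10. Its own change of 0.20 was below that median. TOPORS, a ubiquitin and SUMO ligase beside it, had 25.8 and 30.0 TPM in shSASH1 and 24.7 and 25.4 TPM in shControl. TOPORS did not pass (0.15, limma adjusted p = 0.311), but after centring it was called lower (-0.60, limma adjusted p = 0.0140). DDX58, the RNA sensor RIG-I, rose to 12.6 and 15.5 TPM in shSASH1, against 9.63 and 9.45 TPM in shControl (0.51, limma adjusted p = 0.0480), but did not pass after centring (-0.25, limma adjusted p = 0.179). On the other side C9orf72 had 5.15 and 7.84 TPM in shSASH1 and 4.39 and 4.69 TPM in shControl (0.41, limma adjusted p = 0.204), and LINGO2 was at 0 throughout. After centring, which subtracts the median level of the window and not its median change, the log2 change of ACO1 was -0.55. That of NCOA4, on chromosome 10, was -0.37 after centring. The median log2 change of the NCOA4 window was 0.08, close to the 0.09 of NCOA4 itself.

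**Figure D4:**
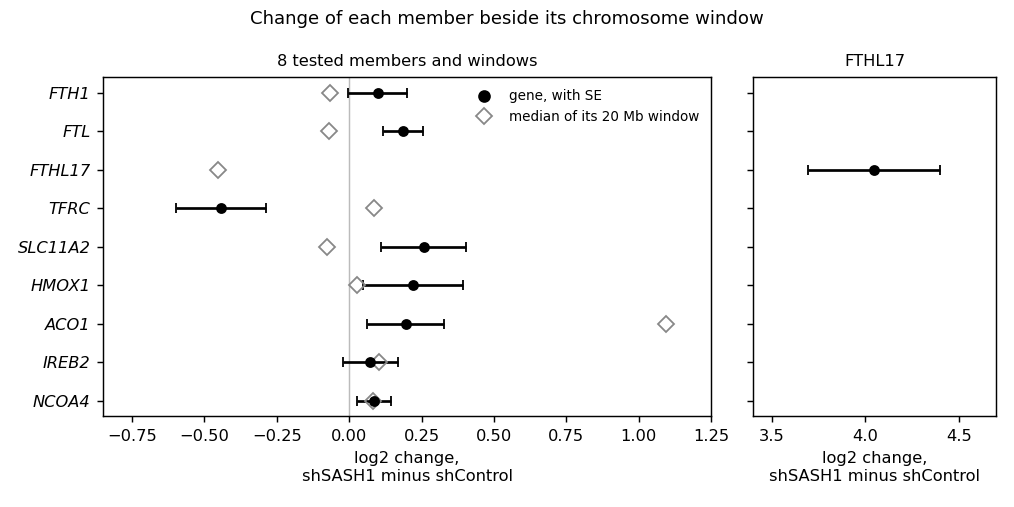
Log2 change of each tested member, shSASH1 minus shControl on log2(TPM + 1), with its SE (filled points), beside the median log2 change of the tested genes in its 20 Mb chromosome window (open diamonds); FTHL17 has a panel of its own. FTHL17 lies at 4.05 while its window lies at -0.45, and ACO1 lies at 0.20 while its window lies at 1.10.

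Counted together, 1 of the 9 tested members, FTHL17, was among the called genes, where 32.0% of all tested genes were called. The groups did not overlap for 6 of the 9, namely 5 higher (FTL, FTHL17, SLC11A2, ACO1, NCOA4) and 1 lower (TFRC), where 73.6% of all tested genes did not overlap. Nothing is read from these counts, since the comparison was in view when the members were chosen. The median absolute log2 change was 0.196 over the 9 tested members and 0.31 over all tested genes. The change was larger than the distance within either pair of libraries for 3 members, FTL, FTHL17 and TFRC. The share of all tested genes with such a change was not computed, and nothing is read from this count. The shSASH1 pair was further apart than the shControl pair in 8 of the 9, all but HMOX1. This was not particular to the members, since the median SD within a group over all tested genes was 0.126 log2 units in shSASH1 and 0.051 in shControl.

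The wider iron pathway was followed in 8 lists of 119 other genes, of which 118 had a row. Of 101 tested, 21 rose, 14 fell and 66 did not pass, with a median log2 change of 0.08, beside 0.06 over all tested genes. The share called was 34.7%, beside 32.0% of all genes. The counts of each list below stand beside 18.8% of all tested genes called higher and 13.3% called lower, and no list was tested as a set. After quantile normalization 17 rose and 20 fell, and with voom on rebuilt reads 21 rose and 21 fell, and after centring 13 rose and 14 fell, so the balance between the directions was not stable over these settings. With either shControl library left out, limma called none of the 32 named genes of these lists that had passed.

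The iron uptake, reduction and transport genes that passed all rose, 5 of 13 tested, with a list median of 0.50. CYBRD1, a ferric reductase, rose to 18.6 and 31.7 TPM in shSASH1, against 9.86 and 8.56 TPM in shControl (log2 change 1.32 ± 0.27, limma adjusted p = 0.0254). LCN2, which binds iron-carrying siderophores, rose to 591 and 734 TPM, against 346 and 378 TPM in shControl (0.86 ± 0.12, limma adjusted p = 0.0114). STEAP1, of a family of metalloreductases, rose to 2.17 and 2.97 TPM, against 0.110 and 0.472 TPM in shControl (1.47 ± 0.27, limma adjusted p = 0.0203). The STEAP1 change was 2.93 with a pseudocount of 0.1 TPM and 3.08 with voom, its shControl values rest on 1 and 5 rebuilt reads, and it passed the filter through its shSASH1 level. The melanotransferrin gene MELTF rose by 0.75, but did not pass after centring (0.51, limma adjusted p = 0.111) or with no filter (limma adjusted p = 0.0706). The rise also took in SLC39A14, a transporter of zinc and iron not bound to transferrin, named after its values were seen (0.65, limma adjusted p = 0.00959). STEAP3, the endosomal ferric reductase of the transferrin cycle, also named after its values were seen, did not pass, at 78.3 and 78.9 TPM in shSASH1 and 78.5 and 81.9 TPM in shControl. In the export and hepcidin list, 1 of 4 tested genes fell, the neogenin gene NEO1. It had 11.9 and 11.7 TPM in shSASH1 and 27.3 and 26.2 TPM in shControl (-1.11, limma adjusted p = 0.00340).

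Among 7 tested genes for loading and releasing ferritin iron, 2 rose and 1 fell, with a median of -0.17. CD63, a tetraspanin of the vesicles that can carry ferritin out of cells, rose to 267 and 240 TPM in shSASH1, against 191 and 194 TPM in shControl (0.39, limma adjusted p = 0.0198). PROM2, a prominin linked to the same export route, fell to 119 and 128 TPM in shSASH1, against 211 and 208 TPM in shControl (-0.76, limma adjusted p = 0.00386). TAX1BP1, an autophagy receptor that works with NCOA4, rose by 0.29. After centring neither TAX1BP1 (0.02, limma adjusted p = 0.875) nor CD63 (0.30, limma adjusted p = 0.128) passed, and PROM2 was at -1.16. TAX1BP1 also missed the threshold after quantile normalization (limma adjusted p = 0.0596), and CD63 after median-of-ratios scaling (limma adjusted p = 0.0506). PCBP1, an iron chaperone that delivers to ferritin, had 106 and 105 TPM in shSASH1 and 124 and 117 TPM in shControl, and did not pass (-0.19, limma adjusted p = 0.0706).

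In the list of IRP control and other IRE transcripts, 3 of 9 tested rose and 2 fell, with a median of -0.10. FBXL5, the iron-sensing ubiquitin ligase subunit that marks IREB2 protein for destruction, rose to 40.1 and 39.6 TPM in shSASH1, against 26.2 and 25.5 TPM in shControl (0.60 ± 0.07, limma adjusted p = 0.00695). EPAS1, whose transcript has an IRE, rose by 0.39 (limma adjusted p = 0.0137) and the kinase CDC42BPA by 0.64 (limma adjusted p = 0.0177), the kinase no longer passing after centring (0.46, limma adjusted p = 0.0518). PFN2, a profilin, fell to 38.5 and 49.1 TPM in shSASH1, against 70.0 and 71.2 TPM in shControl (-0.69, limma adjusted p = 0.0214). CUL1, a scaffold of the same ligase as FBXL5 and the remaining gene that fell, was named after its values were seen (-0.27).

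Of the transcription factors that act on HMOX1 and ferritin genes, listed with their regulator KEAP1, 5 of 6 tested were called, with a median of 0.57. All 5 were higher, where 18.8% of all tested genes were called higher. This was the highest share called among the 8 lists, a ranking made after the values were seen and not tested. The small MAF proteins, partners of NRF2 and BACH1 on DNA, rose together. MAFF reached 56.5 and 66.9 TPM in shSASH1, against 26.7 and 27.2 TPM in shControl (1.16 ± 0.10, limma adjusted p = 0.00443). MAFG rose by 0.98 (limma adjusted p = 0.0215) and MAFK by 0.63 (limma adjusted p = 0.0132). KEAP1, which holds NRF2 down, rose to 291 and 284 TPM, against 206 and 198 TPM in shControl (0.51, limma adjusted p = 0.00651), and NFE2L1 rose by 0.49 (limma adjusted p = 0.0344). NFE2L1 did not pass after quantile normalization (limma adjusted p = 0.0558) or with no filter (limma adjusted p = 0.0575). NFE2L2, which encodes NRF2, did not pass, at 102 and 135 TPM in shSASH1 and 111 and 108 TPM in shControl (0.11, limma adjusted p = 0.603). BACH1, also on this list, had no row among those analysed.

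Heme genes moved in both directions, with 4 of 21 tested higher and 3 lower and a median of 0.11. ALAS1, the first enzyme of heme synthesis, rose to 99.9 and 106 TPM in shSASH1, against 78.3 and 75.1 TPM in shControl (0.42, limma adjusted p = 0.0130). FECH, the enzyme that puts iron into heme, fell to 12.8 and 11.6 TPM, against 17.69 and 17.98 TPM in shControl (-0.51, limma adjusted p = 0.0221). FLVCR2 fell by 1.04 on the log2 scale, a change that was -1.69 with voom and missed the threshold with no filter (limma adjusted p = 0.0509). Its relative FLVCR1 rose by 0.41, TMEM14C, which carries heme precursors in the mitochondrion, by 0.38, and PGRMC1, a heme-binding membrane protein, by 0.37. After centring neither FLVCR1 (0.04, limma adjusted p = 0.780) nor TMEM14C (0.03, limma adjusted p = 0.808) passed, PGRMC1 on chromosome X was lower (-0.43, limma adjusted p = 0.0256), and FECH was at -0.79. FLVCR1 also missed the threshold after median-of-ratios scaling (limma adjusted p = 0.0648), after quantile normalization (limma adjusted p = 0.0800) and with no filter (limma adjusted p = 0.0537). BLVRB, a biliverdin reductase, was at 165 and 220 TPM in shSASH1 and 202 TPM in both shControl libraries, and did not pass.

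Most iron-sulfur cluster genes did not pass. Of 28 tested, 4 fell and 0 rose, where 13.3% of all tested genes fell and 18.8% rose; 14 of the 28 had a change above 0, and the median was -0.02. FDXR, ferredoxin reductase, fell to 28.3 and 32.4 TPM in shSASH1, against 48.0 and 53.6 TPM in shControl (-0.72 ± 0.10, limma adjusted p = 0.0112). NUBP1 (-0.60), the mitochondrial protein CISD3 (-0.59) and CIAO3 (-0.45) fell as well, but none of these 3 passed after centring, with limma adjusted p = 0.0728, 0.0889 and 0.0917 in that order. CISD3 and CIAO3 also missed the threshold with no filter (limma adjusted p = 0.0688 and 0.0550). HSPA9, the mitochondrial chaperone of cluster transfer, did not pass, at 270.0 and 282 TPM in shSASH1 and 270.0 and 262 TPM in shControl. CIAO1 and CIAO2B, of the cytosolic targeting complex, were at 106 to 121 TPM in shSASH1 and 96.4 to 109 TPM in shControl and did not pass.

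In the list of lipid peroxidation and ferroptosis, the iron-dependent form of cell death, 2 of 13 tested rose and 3 fell, with a median of 0.14. ACSL4, which loads polyunsaturated fatty acids into membranes, rose to 44.7 and 47.2 TPM in shSASH1, against 18.2 and 17.5 TPM in shControl (1.32 ± 0.08, limma adjusted p = 0.00247). The median change of its window on chromosome X was 0.70, and after centring ACSL4 was at 0.52 (limma adjusted p = 0.0199). GPX4, the peroxidase that repairs lipid peroxides, fell to 201 and 211 TPM, against 247 and 254 TPM in shControl (-0.28, limma adjusted p = 0.0263). With a replicate block in the fit GPX4 did not pass (limma adjusted p = 0.0583). SLC3A2, the heavy chain of the cystine transporter, fell to 324 and 304 TPM, against 463 and 447 TPM in shControl (-0.54, limma adjusted p = 0.00713). The lipoxygenase gene ALOX15 fell by 1.13 and AIFM2, which regenerates reduced ubiquinone, rose by 0.40. AIFM2 did not pass after centring, with no filter, or under either other scaling, where limma adjusted p ranged from 0.0554 to 0.0662. SAT1 had 939 and 1561 TPM in shSASH1 and 1259 and 1211 TPM in shControl, and did not pass.

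**Figure D5:**
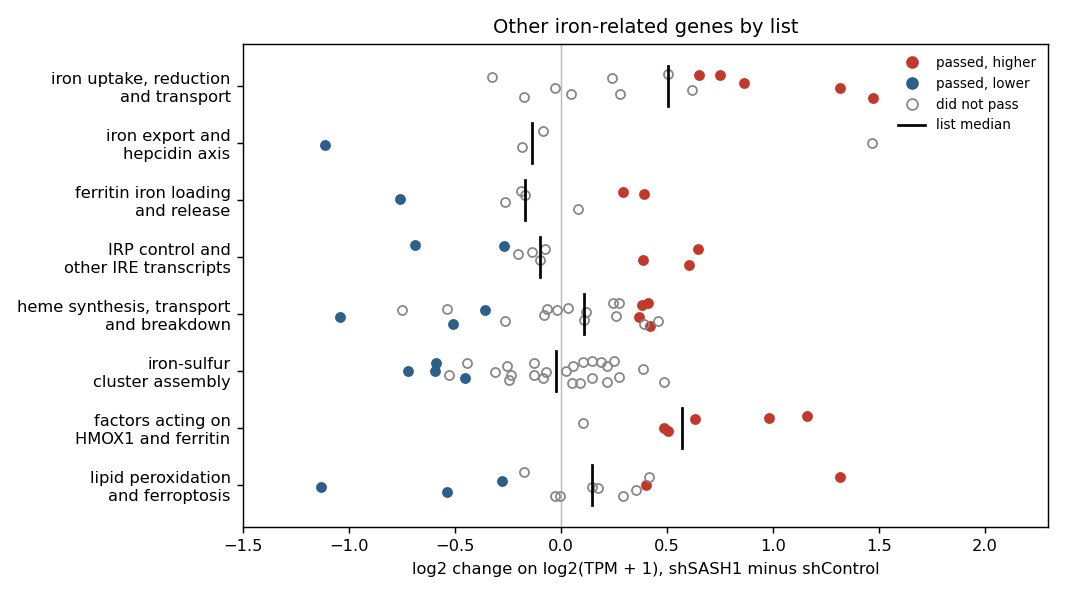
Log2 change on log2(TPM + 1), shSASH1 minus shControl, of the 101 tested iron-related genes outside the members, by list; filled points passed limma's threshold and vertical bars are list medians. The called genes lie to the right of 0 in the uptake list and in the list of factors acting on HMOX1 and ferritin, and the 4 called iron-sulfur genes lie to the left of 0.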

How the data were processed

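RNA of 4 libraries was extracted with TRIzol and made into NEBNext Ultra libraries, per the labels' protocols. The authors deposited TPM for each Ensembl gene. The submitters' processing notes name STAR, DESeq2 and hg38, with no version or role. Neither the counter nor the gene lengths nor any use of strand is given in the sources used here, and reads of overlapping genes (BEST1 with FTH1, for example) cannot be told apart. All 26518 identifiers matched GENCODE 29, which gave symbols and hg38 positions.

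All genes averaging 1 TPM or more were fitted together on log2(TPM + 1) by limma 3.58.1 (R 4.3.3), with a variance trend and no replicate block, two-sided, with Benjamini-Hochberg adjustment. The procedure was first run on simulated data, with the same spread in both groups and few genes changed. Here the shSASH1 pair was wider and many genes were called, so the simulation does not show how well these calls hold. The p-values measure the spread between these libraries, which may be technical. Reads were rebuilt from TPM times exon-union length with the scale that made low values whole; 89.0% to 89.5% of values up to 20 reads came within 0.05 of a whole number, so they are estimates.

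The members, lists and tests were chosen with earlier results of these data known. The text names the members, up to 4 called genes per list by size of change, up to 3 at 100 TPM or more, the neighbours of FTHL17 and ACO1, and the nearest profiles. Sequences were read from GENCODE 29 transcripts and aligned with Biopython 1.88. Alternatives were a pseudocount of 0.1 TPM, no filter, a minimum of 5 TPM, median-of-ratios scaling, quantile normalization, a replicate block, each library left out and centring on 20 Mb windows; voom on rebuilt reads was chosen after seeing the data.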

Additional observations from a re-analysis of the deposited data

How the results depend on the processing

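Over the 12 other settings FTHL17, FTL and SLC11A2 kept a positive and TFRC a negative log2 change; FTHL17 ranged from 3.57 to 7.29 (7.28 with a pseudocount of 0.1 TPM), FTL from 0.11 to 0.27, SLC11A2 from 0.06 to 0.45 and TFRC from -0.68 to -0.23. FTH1 changed sign without shSASH1 replicate 1 (-0.02), HMOX1 without shControl replicate 1 (-0.02), ACO1 and NCOA4 after centring on windows, and IREB2 in 4 settings, with a range of -0.13 to 0.17. With the replicate block 9 iron-related genes were called lower instead of 14. There 7 of 32 named called genes did not pass (AIFM2, CIAO3, FLVCR1, FLVCR2, GPX4, MELTF, TAX1BP1). The replicate numbers are not known to pair the libraries (correlation of same-number deviations -0.03). After centring on windows 1755 of all genes and 13 iron-related genes were called higher, 10 named genes (AIFM2, CD63, CDC42BPA, CIAO3, CISD3, FLVCR1, MELTF, NUBP1, TAX1BP1, TMEM14C) no longer passed, and PGRMC1 turned to -0.43; the cause was not tested. With each library left out in turn, 0 to 4543 of all genes were called higher and 0 to 3185 lower, and 0 to 44 iron-related genes higher and 0 to 25 lower. The counts of 0 came without shControl replicate 1 and without shControl replicate 2, where limma called no gene but 3446 and 3326 had an unadjusted p under 0.05, and voom, run on all libraries only, called 5351. The lone library is then assumed to vary like the other group, whose pair is the wider one, so the dependence of single calls on 1 library cannot be read from these counts. SASH1 had a log2 change of -1.63 and limma adjusted p = 0.00391, which did not pass without shControl replicate 1 (0.106) or replicate 2 (0.104). Quantile normalization lowered the median of all genes by 0.07 log2 units. The sum of FTH1 with its pseudogenes could not be run for want of such rows. That of FTL with FTLP10 could not alter the FTL difference of 112 TPM, since FTLP10 was at 0 in all 4 libraries. It therefore says nothing about reads shared with pseudogenes. Read depth limits SLC40A1, with at most 6 rebuilt reads, and leaves FTHL17 resting on 46 in shSASH1 replicate 2.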

Other observations

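FTHL17 was 1 of 3 protein-coding genes that were listed at 0 in both shControl libraries and had at least 10 TPM in both shSASH1 libraries, and all 3 (FTHL17, CXorf57 and HMGN5) lie on chromosome X. At a minimum of 1 TPM in both shSASH1 libraries there were 7 such genes, of which 4 lie on X, the fourth being POF1B at 2.78 and 2.29 TPM in shSASH1. The other 3 were ARSI at 4.49 and 3.50 TPM, the transcription factor TWIST1 at 3.28 and 2.68 TPM and CPQ at 1.461 and 1.997 TPM in shSASH1. Chromosome X holds 4.20% of the 18999 protein-coding rows and 9.49% of the 2192 that were at 0 in both shControl libraries. FTHL17 lies on the short arm, in a window with a median log2 change of -0.45, whereas the window that holds CXorf57 on the long arm had a median of 0.70. These genes were singled out after their values were seen, and the difference in the share on X was not tested.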
